A study of Mus musculus with 17 samples.

Results

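The 10 genes described here act in antigen presentation, the display of peptides on the cell surface to T cells. Of these, 5 belong to the class II pathway (H2-Aa, H2-Ab1, H2-Eb1, Cd74 and H2-DMa) and 5 to the class I pathway (B2m, H2-K1, H2-D1, Tap1 and Tapbp). The list was set by gene name, with no measured value as a criterion but with earlier results of these data known, and every probe that the array annotation assigns to them under a current or former symbol was taken. This gave 23 of the 34885 probes with 1 gene symbol. After a filter on dim probes, 19 of them remained among 11897, and all 10 genes were among the 8236 genes tested.

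RNA was measured in the non-infarcted posterior and inferior wall of the left ventricle of 17 female mice, with 1 BeadChip array per mouse. The strain was C57/BL6 (the substrain C57BL/6N in the methods). Their age was given as 8 to 10 weeks, which the methods state for the mice obtained for the study, not for the day of sampling. The MI group (n = 6) had the left anterior descending coronary artery ligated and received water only. The MI+Val group (n = 5) had the same ligation and received Valsartan, which blocks angiotensin II signalling through its type 1 receptor, at 1 mg/kg per day in drinking water. The sham group (n = 6) had a thoracotomy without ligation and no drug. Tissue was taken at week 4 from hearts perfused with PBS. Infarcted mice had been selected for an ejection fraction within a set range on the day after ligation, so they do not cover the whole span of infarct severity.

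Class II molecules are pairs of an alpha and a beta chain that carry peptides from endocytosed material to CD4+ T cells, and they are made mainly by dendritic cells, B cells and macrophages. Class I molecules consist of a heavy chain and beta-2 microglobulin, carry peptides from the cytosol to CD8+ T cells, and are made by nearly all nucleated cells. Both pathways are induced by interferon-gamma, and in the heart class II is known chiefly from resident and recruited leukocytes and from activated endothelium. In RNA from whole tissue, fewer cells of a type and less RNA per cell cannot be told apart.

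Genes of both pathways share a promoter module whose X2 box resembles a cyclic AMP response element and whose Y box is an inverted CCAAT sequence. Class I heavy chain genes also carry an NF-kappaB site and an interferon response element. Because members of both classes moved together between mice, as described further on, the stretches with these letters are shown. They come from RefSeq promoter windows of GRCm38.p6, each of 300 bases from 250 before to 50 after the start. A window was found for 8 of the 10 genes, H2-Ab1 and Cd74 having none that is used here. The letters searched on both strands were TGACG for the X2 box core, GATTGG for the Y box core, GGGATTCCC for the NF-kappaB site and TTTCNNTT for the interferon element core, and capitals mark the matches.
H2-Aa (chr17:34287857-34287907, minus strand): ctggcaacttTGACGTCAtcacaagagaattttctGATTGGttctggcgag
H2-Eb1 (chr17:34305797-34305847, plus strand): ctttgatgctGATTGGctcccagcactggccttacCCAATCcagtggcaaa
B2m (chr2:122147540-122147648, plus strand): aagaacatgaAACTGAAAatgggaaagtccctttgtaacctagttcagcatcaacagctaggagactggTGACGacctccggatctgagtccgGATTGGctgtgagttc
H2-K1 (chr17:34000324-34000467, minus strand): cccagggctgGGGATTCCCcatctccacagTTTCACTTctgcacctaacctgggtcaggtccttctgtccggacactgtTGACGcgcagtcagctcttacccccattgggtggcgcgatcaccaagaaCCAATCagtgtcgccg
H2-D1 (chr17:35262914-35263056, plus strand): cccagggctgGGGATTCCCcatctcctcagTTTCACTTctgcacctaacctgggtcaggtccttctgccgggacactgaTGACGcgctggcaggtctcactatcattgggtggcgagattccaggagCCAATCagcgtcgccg
Tap1 (chr17:34187460-34187484, plus strand): cagagacaggTGACGacagagggtc

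In H2-Aa the X2 core occurs on both strands, and these matches overlap in a palindrome that starts 74 bases before the start of the gene, with the Y core 49 bases before it. H2-Eb1 held the Y core alone, once on each strand, and B2m held the X2 core at 78 and the Y core at 54 bases before the start. The stretches of H2-K1 and H2-D1 were alike, with 80 of the first 84 bases identical, and both held all 4 sets of letters in the same order. Their Y core was matched on the opposite strand, 8 bases after the start in H2-K1 and 53 before it in H2-D1. In H2-Aa and B2m it was on the sense strand. The letters cattgg between the X2 core and that match differ from GATTGG in the first letter and are not marked. Which of these acts as the Y box was not tested. Among all 32851 promoter windows the X2 core occurred in 20.8%, the Y core in 16.1%, the interferon core in 23.9% and the NF-kappaB letters in 0.353%. All 4 occurred together in 4 windows (0.0122%), of which 3 belonged to H2-K1 and H2-D1, H2-K1 having 2 overlapping windows. The other was that of H2-Q7, also a class I heavy chain gene. The letters were chosen for elements known in such genes, so this share is not a test. The printed stretches leave out some matches farther from the rest, which were an interferon core 213 bases before the start in H2-Aa, a Y core 222 bases before it in Tap1, and an X2 core 44 bases after it in B2m. The window of Tapbp and the first of the windows of H2-DMa held none of the letters, and the second of H2-DMa held a Y core at 199 and an interferon core at 25 bases before the start. Such matches describe the letters in these windows only.

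The tissue label was checked against marker genes. Signals of 7 cardiomyocyte genes summed to between 66430 and 78190 in all mice, while of 3 liver genes Alb was detected on no array, Apoa1 on 8 and Ttr on 15. Ttr was at 0.84 between MI and sham on the log2 scale (adjusted p = 0.236), with signals of 35.54 to 192.6 in sham and 63.53 to 231.9 in MI. Between 13929 and 15206 probes were detected per array, and these numbers overlapped between groups. The arrays lay on 3 chips, which held 1, 3 and 2 sham mice, 4, 1 and 1 MI mice, and 1, 2 and 2 MI+Val mice, so the chip and the group were partly confounded. Across all genes, limma with Benjamini-Hochberg adjustment called 464 of 8236 genes between MI and sham, 0 between MI+Val and MI, and 1 between MI+Val and sham.

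None of the 10 genes differed between the groups by limma. Between MI and sham 0 of 10 passed an adjusted p of 0.05, where 5.63% of all genes did. Between MI+Val and MI 0 of 10 passed, against 0% of all genes, and between MI+Val and sham 0 of 10, against 0.0121%. The F test over the 3 groups, at an adjusted p of 0.10, called 0 of 10 against 4.8% of all genes. At an unadjusted p under 0.05 the count stayed at 0 of 10 in each comparison, where 19.7%, 9.23% and 7.25% of all genes fell below that value, and the unmoderated test named in the methods called 0 of 10 as well. The estimates nevertheless differed by class. The class II genes had a median log2 difference between MI and sham of 0.39 (0.26 to 0.43, higher in 5 of 5 genes), the class I genes of 0.06 (-0.11 to 0.18, higher in 4 of 5), and all genes tested of -0.01, with 47.9% of them higher in MI. Each group enters 2 of the 3 comparisons, so these are not independent.

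H2-Aa encodes the alpha chain of the I-A molecule, 1 of the class II dimers of the mouse. Its log2 intensity ran from 7.58 through a median of 7.93 to 8.58 in sham, from 7.73 through 8.12 to 8.83 in MI, and was 8.20, 7.94, 8.42, 8.36 and 8.46 in the 5 MI+Val mice. A single sham mouse, sham 1, stood above the other 5, and the 3 groups overlapped. The difference between MI and sham was 0.26 ± 0.17 (SE, adjusted p = 0.428), and that between MI+Val and MI was 0.06 ± 0.18 (adjusted p = 0.946).

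H2-Ab1 encodes the beta chain of I-A, the partner of H2-Aa. Its log2 intensity ran from 7.06 through 7.90 to 8.55 in sham and from 7.91 through 7.99 to 9.27 in MI, and was 8.56, 7.76, 8.52, 8.02 and 8.09 in MI+Val. The upper end of the MI range came from MI 3 and MI 1, while the other 4 MI mice lay close together, between 7.91 and 8.01, within the sham range. The difference between MI and sham was 0.43 ± 0.25 (adjusted p = 0.354, 95% interval -0.09 to 0.96), and that between MI+Val and MI was -0.09 ± 0.26 (adjusted p = 0.943). This gene had the widest range of the 10, 2.20 over all mice.

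H2-Eb1 encodes the beta chain of I-E. Its alpha chain gene, H2-Ea, is known to be non-functional in the C57BL/6 background, and its probe was detected on no array, so H2-Eb1 mRNA was measured here without its partner. H2-Eb1 ran from 8.50 through 9.26 to 9.71 in sham and from 9.05 through 9.37 to 10.47 in MI, and was 9.72, 9.13, 9.71, 9.52 and 9.62 in MI+Val. The groups overlapped, and MI 3 and MI 1 were again the highest. The difference between MI and sham was 0.39 ± 0.23 (adjusted p = 0.352), and that between MI+Val and MI was -0.03 ± 0.24 (adjusted p = 0.987).

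Cd74 encodes the invariant chain, which fills the groove of new class II dimers and guides them to endosomes. It ran from 8.84 through 9.73 to 10.26 in sham and from 9.53 through 9.94 to 10.91 in MI, and was 10.18, 9.90, 10.28, 10.18 and 10.29 in MI+Val. Of the 10 genes it had the largest share of its variance between groups, 22.2%, and its largest difference was that of MI+Val from sham (0.48 ± 0.23, adjusted p = 0.693). Against sham the MI mice differed by 0.39 ± 0.22 (adjusted p = 0.342), and MI+Val differed from MI by 0.08 ± 0.23 (adjusted p = 0.939).

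H2-DMa encodes the alpha chain of H2-DM, which exchanges the invariant chain remnant for antigenic peptide. Its log2 intensity ran from 5.55 through 6.29 to 6.68 in sham and from 6.07 through 6.51 to 7.23 in MI, and was 6.98, 6.28, 6.74, 6.83 and 6.08 in MI+Val. MI 3 was highest and sham 4 lowest, and the groups overlapped. The difference between MI and sham was 0.38 ± 0.22 (adjusted p = 0.357), and that between MI+Val and MI was -0.02 ± 0.23 (adjusted p = 0.990). H2-DMb1 and H2-DMb2, which encode the other chain, had log2 differences of 0.49 (adjusted p = 0.160) and 0.31 (adjusted p = 0.431) between MI and sham.

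B2m encodes beta-2 microglobulin, the light chain common to class I molecules. It ran from 12.49 through 12.71 to 13.09 in sham and from 12.67 through 12.92 to 13.28 in MI, and was 12.77, 12.69, 13.13, 12.98 and 12.90 in MI+Val. It varied least of the 10 genes, with an SD within groups of 0.21. The difference between MI and sham was 0.18 ± 0.12 (adjusted p = 0.438), the largest estimate among the class I genes, and MI+Val differed from MI by -0.03 ± 0.13 (adjusted p = 0.958).

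H2-K1 and H2-D1 encode class I heavy chains. H2-K1 ran from 7.47 through 7.74 to 7.79 in sham, a narrow range, and from 7.38 through 7.61 to 8.20 in MI, and was 7.77, 7.66, 8.37, 8.05 and 7.68 in MI+Val. H2-D1 ran from 6.03 through 6.45 to 6.89 in sham and from 5.88 through 6.38 to 7.25 in MI, and was 6.85, 6.17, 7.05, 6.60 and 7.14 in MI+Val. For both genes the MI range enclosed the sham range, its upper end coming from MI 1 and MI 3. Between MI and sham H2-K1 differed by 0.06 ± 0.14 (adjusted p = 0.868) and H2-D1 by 0.14 ± 0.23 (adjusted p = 0.791). Between MI+Val and MI these values were 0.17 ± 0.15 (adjusted p = 0.772) and 0.21 ± 0.24 (adjusted p = 0.828), the highest estimates of the 10 genes in that comparison. The probe used for H2-D1 was dim, with a median signal of 180.7, where its other 2 kept probes had 2198.1 and 1481.5. Those gave 0.04 and 0.11 between MI+Val and MI. The RefSeq table lists H2-K1 and H2-D1 each as a former name of the other gene, and heavy chain genes are close copies, so which of them a probe binds is uncertain.

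Tap1 encodes a chain of the transporter that brings peptides from the cytosol into the endoplasmic reticulum, and Tapbp encodes tapasin, which holds the empty class I molecule at that transporter. Tap1 ran from 4.87 through 5.59 to 5.92 in sham and from 5.02 through 5.35 to 6.31 in MI, and was 5.77, 5.40, 5.64, 5.50 and 5.22 in MI+Val. It lay near background, since its only probe was detected in 4 of 6 sham, 5 of 6 MI and 4 of 5 MI+Val mice, and its group means were almost equal, with differences of 0.02 ± 0.21 (adjusted p = 0.969) between MI and sham and -0.02 ± 0.22 (adjusted p = 0.989) between MI+Val and MI. Only 0.08% of its variance lay between groups. Tapbp ran from 5.42 through 6.10 to 6.66 in sham and from 5.47 through 6.05 to 6.49 in MI, was 5.55, 5.97, 6.17, 5.83 and 5.97 in MI+Val, and alone of the 10 had a lower mean in MI than in sham, by an estimate of -0.11 ± 0.19 (adjusted p = 0.813).

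**Figure D1:**
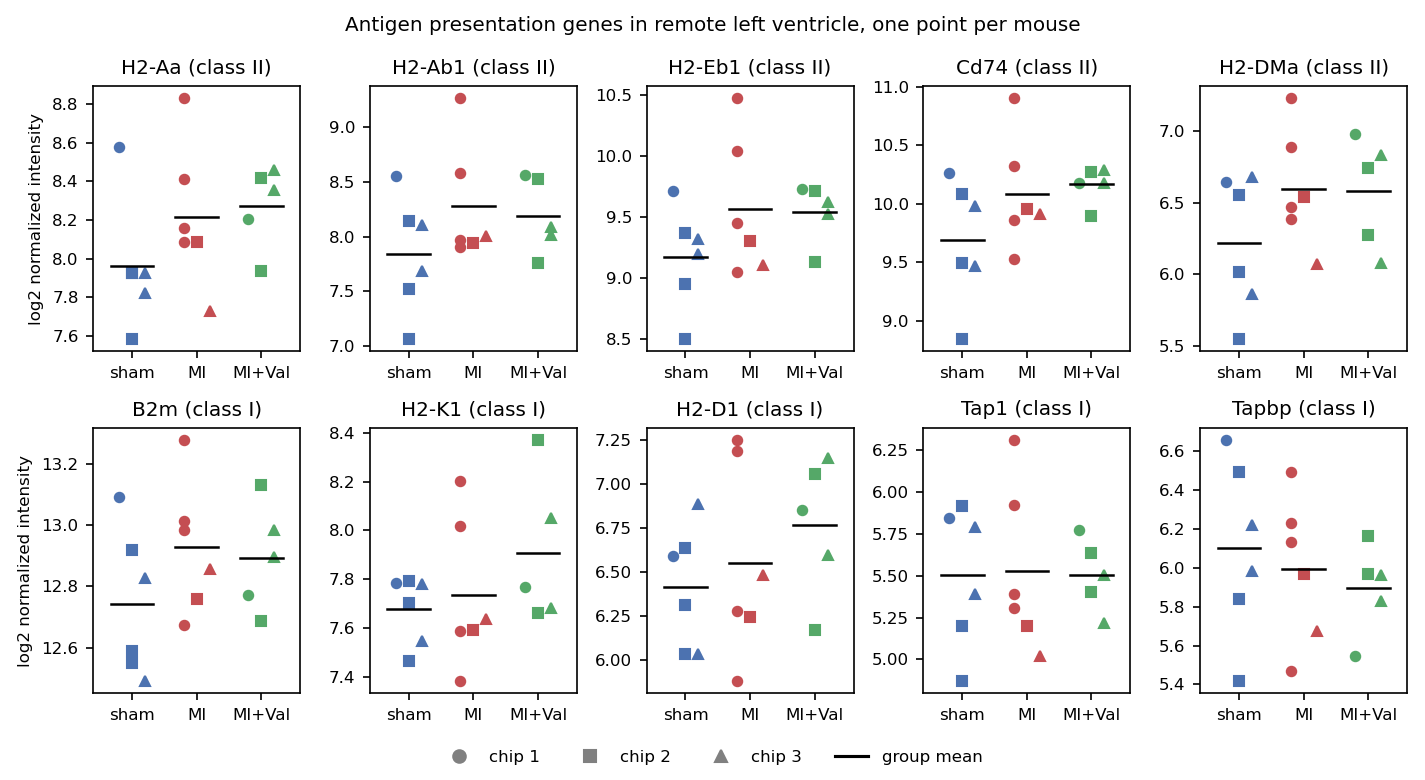
Log2 normalized intensity of each gene (y axis, scaled per panel) in the sham, MI and MI+Val mice (x axis), 1 point per mouse, with bars at group means and marker shapes for the 3 chips. In every panel the 3 groups overlap, and the highest MI points of the class II genes are circles, from chip 1.

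Most genes were covered by several probes. All 10 probes of class II genes had a higher mean in MI than in sham, with log2 differences from 0.26 to 0.56, against 7 of 9 kept class I probes, from -0.31 to 0.21. The median over all 11897 probes was -0.01, and 47.9% of all genes tested were higher in MI. The 10 probes measure 5 genes in the same mice, so they are not 10 independent results. In the fit over all 11897 probes 0 of the 19 passed between MI and sham, where 4.96% of all probes did, 0 between MI+Val and MI, where 0.00841% did, and 0 between MI+Val and sham, where 0.0252% did. At an unadjusted p under 0.05 there were 3 of 19 between MI and sham, against 19.3% of all probes, 0 between MI+Val and MI, against 8.65%, and 3 between MI+Val and sham, against 7.29%. The lowest adjusted p between MI and sham was that of the second probe of H2-DMa, at 0.54 (adjusted p = 0.137), and the other 2 were H2-Ab1 probes at 0.54 and 0.56 (adjusted p = 0.213 and 0.200). In MI+Val against sham the 3 were this H2-DMa probe, at 0.46, and 2 Cd74 probes, at 0.48 and 0.50.

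With group means removed, the 3 probes of H2-Ab1 correlated at r = 0.93 to 0.94 over the 17 mice, those of Cd74 at 0.90 to 0.98, and the pair for H2-DMa at 0.84. The kept B2m pair correlated at 0.82. For H2-D1 the range was 0.52 to 0.87, and the probe used for it, that with the largest interquartile range, was the least like the other 2. The probes of Tapbp hardly followed each other (r = 0.16). The other Tapbp probe had the estimate of -0.31 (adjusted p = 0.265). The 4 probes that did not pass the filter were 1 for B2m, 2 for H2-K1 and 1 for H2-D1. Detection was at 0 of 17 arrays for 3 of them and at 8 for a probe of H2-K1.

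The contrast of the classes was taken within each mouse. Each gene was centred on its mean over the 17 mice, and the 5 genes of a class were averaged. The class II mean was -0.24 ± 0.42 (SD, n = 6) in the sham group. It was 0.13 ± 0.46 (n = 6) in MI mice and 0.13 ± 0.22 (n = 5) in treated mice. The class I mean was -0.05 ± 0.27, 0.01 ± 0.35 and 0.05 ± 0.18. The class II mean of the MI mice thus lay 0.37 above that of sham, less than 1 SD within either group, and MI+Val lay 0.00 from MI. For class I these differences were 0.06 and 0.05.

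The difference of the class means within a mouse was less variable. It was -0.19 ± 0.23 in sham mice, 0.12 ± 0.21 in infarcted and 0.08 ± 0.14 in treated mice, so MI exceeded sham by 0.31 and MI+Val exceeded sham by 0.27. The values ran from -0.62 through -0.14 to 0.08 in sham and from -0.06 through 0.10 to 0.51 in MI, and were 0.31, -0.06, -0.01, 0.11 and 0.05 in MI+Val. The groups overlapped. Both ends came from single mice, sham 4 at -0.62 and MI 3 at 0.51. Because the genes were chosen with results known, no p is given for these means.

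The chip moved with the class II values. On chip 1 the class II mean was 0.33 in the sham mouse, 0.27 over the 4 MI mice and 0.31 in the MI+Val mouse. On chip 2 it was -0.45, -0.05 and 0.05, and on chip 3 it was -0.21, -0.25 and 0.13. Within chips the difference between MI and sham was therefore -0.06, 0.40 and -0.04, and with the chip as a block it was 0.14 in place of 0.37. For the class I mean it was -0.14, -0.03 and -0.16 within chips, and with the block -0.06 in place of 0.06, so its sign changed. For the class II mean minus the class I mean, the difference was 0.08, 0.43 and 0.12 within chips and 0.20 with the block. With the block, the estimates between MI and sham were 0.06 for H2-Aa, 0.14 for H2-Ab1, H2-Eb1 and H2-DMa and 0.23 for Cd74, and none of the 10 genes passed. MI+Val against MI moved the other way, the class II difference being 0.04, 0.10 and 0.38 within chips and 0.21 with the block in place of 0.00, and MI+Val against sham hardly moved, with class II at 0.35 under the block. Most of the MI mice were on chip 1, and a single sham mouse was.

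**Figure D2:**
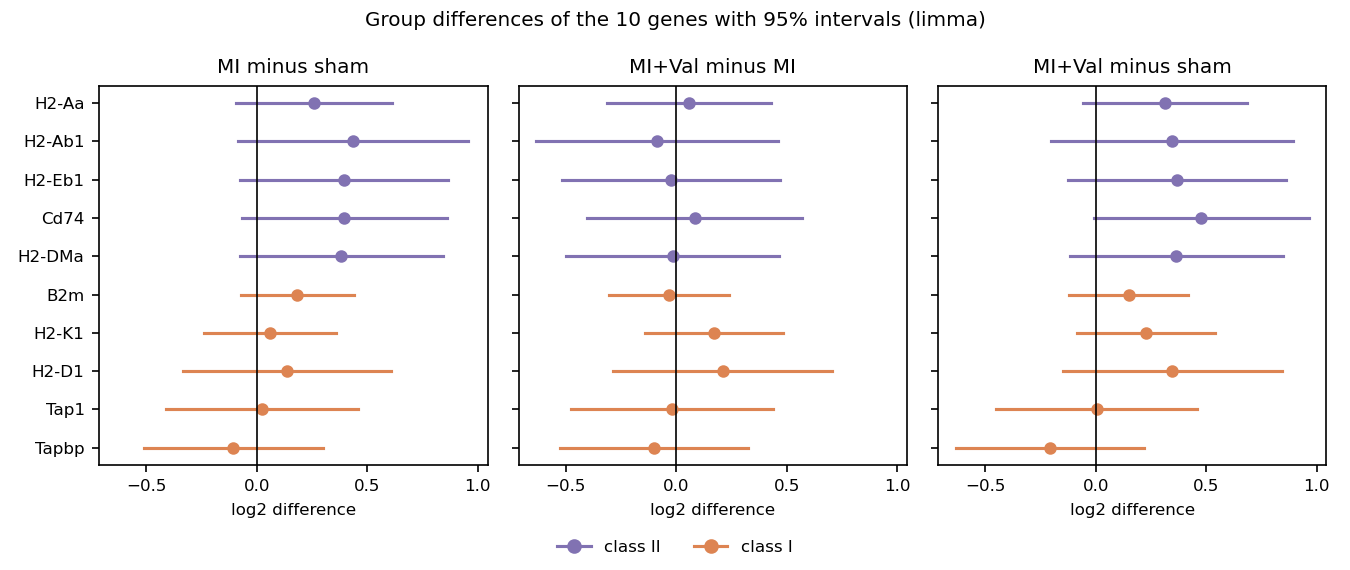
Log2 difference (x axis) of each of the 10 genes (y axis) in the 3 comparisons, with points at limma's estimates and lines for 95% intervals. Class II genes lie at 0.26 to 0.43 in MI minus sham and near 0 in MI+Val minus MI, and every interval includes 0.

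Differences between mice of 1 group were larger than those between groups, and they were shared by the 10 genes. With group means removed, the 10 pairs within class II had a median r of 0.80 (0.56 to 0.95) over the 17 mice. The 10 pairs within class I had a median of 0.62 (0.43 to 0.82) and the 25 pairs between the classes also of 0.62 (0.45 to 0.92), where the median over all pairs of the 8236 genes was 0.00. Over these 45 pairs, an adjusted permutation p under 0.05 was reached by 10, 8 and 23 pairs for Pearson's r and by 9, 8 and 22 for Spearman's rho. The share of all gene pairs that would pass was not computed, so these counts have no background beside them. Mice were permuted within groups without regard to the chip, so a shift shared by the arrays of a chip can enter these p-values. With chip means removed too, the medians were 0.77, 0.61 and 0.62. Without the 2 mice farthest from the median of the first gene of each pair they were 0.68, 0.60 and 0.63.

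The tightest pair was H2-Ab1 with H2-Eb1, at r = 0.95 (permutation p = 1e-05, the smallest that 100000 permutations can give, adjusted p = 0.0003) and rho = 0.95 (adjusted p = 0.00045), and at r = 0.90 without MI 3 and sham 1. Both followed Cd74 at r = 0.93. H2-Aa followed the other class II genes least. Its r with Cd74 fell from 0.65 (permutation p = 0.0156, adjusted p = 0.0250) to 0.31 without MI 3 and sham 1, the 2 mice farthest from its median. Leaving out such mice narrows the range of H2-Aa, so this fall cannot by itself show that the relation rests on them. The rho of H2-Aa with Cd74 was 0.54 (permutation p = 0.0430, adjusted p = 0.0496), and its r with chip means removed too was 0.60.

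Among the class I genes, Tap1 went with class II. Its r was 0.92 with H2-Ab1 (permutation p = 4e-05, adjusted p = 0.00036, rho = 0.80 with adjusted p = 0.00392), 0.92 with H2-DMa, 0.91 with H2-Eb1 and 0.86 with Cd74. With the other class I genes it was 0.65 for B2m, 0.64 for Tapbp, 0.60 for H2-K1 and 0.50 for H2-D1, the last not passing (permutation p = 0.0730, adjusted p = 0.0764). Over all genes outside class II, H2-DMb2 (r = 0.96) and then Tap1 (r = 0.93) were the most like the class II mean. B2m was closest to Tapbp (r = 0.82, permutation p = 0.00052, adjusted p = 0.00234, rho = 0.78), and H2-K1 to H2-D1 (r = 0.74, permutation p = 0.00331, adjusted p = 0.00993, rho = 0.69), the pair with like promoter stretches, whose probe binding is uncertain. That Tap1 is more like class II than class I was not tested.

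**Figure D3:**
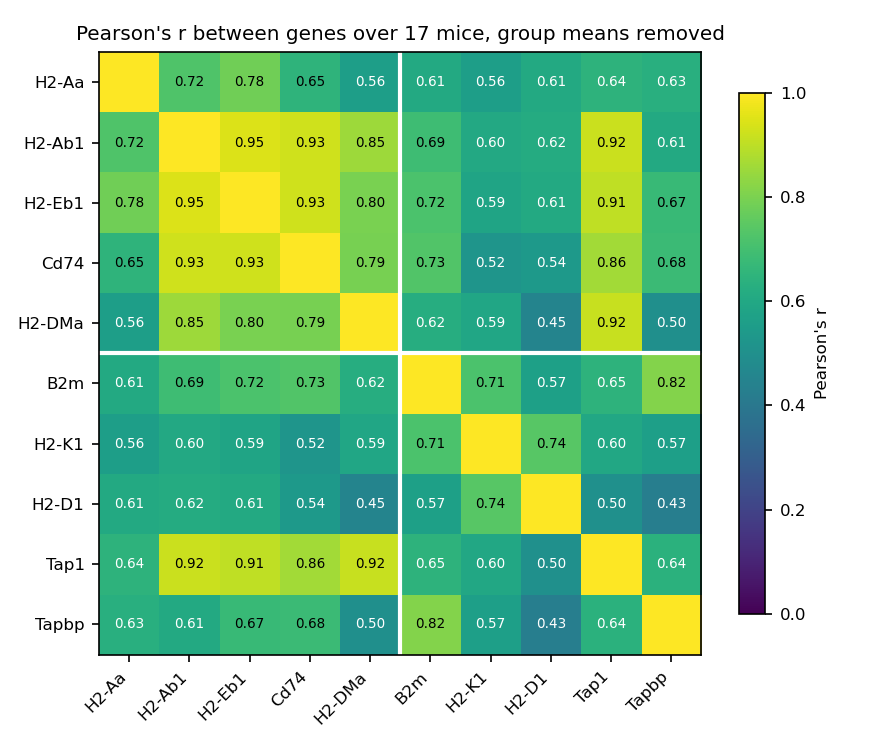
Pearson's r (colour and number) between each pair of the 10 genes (both axes) over 17 mice with group means removed, the white lines dividing class II from class I. H2-Ab1, H2-Eb1, Cd74, H2-DMa and Tap1 form the block of highest values, up to 0.95.

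By mouse, the class means kept much the same order. MI 3 was highest for class II (0.92) and MI 1 for class I (0.49), and these mice held the top 2 places in both classes. The array of MI 1 also had the lowest median signal (90) and the fewest detected probes (13929) of the 17. In sham, mouse 1 had a class II mean of 0.33 and a class I mean of 0.25, above its group, and mouse 3 had -0.51 and -0.40. Sham 4 was lowest for class II (-0.84), though not for class I (-0.22). Class II and class I means correlated at r = 0.87 (rho = 0.87) over the 17 mice with group means removed, a description without a p. The SDs within groups of H2-Ab1, H2-Eb1, Cd74, H2-DMa and H2-D1 exceeded those of 95.8% to 97.8% of all genes, whereas that of B2m exceeded 42.9%. For H2-D1 this holds for the dim probe used, with group SDs of 0.35 to 0.55. Its 2 brighter probes had group SDs of 0.23 to 0.33.

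**Figure D4:**
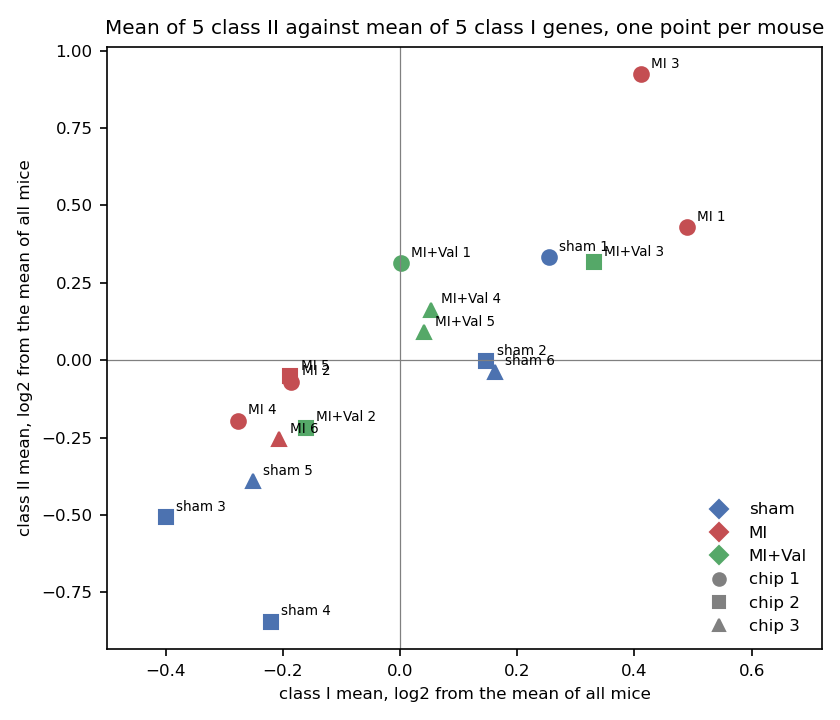
Class II mean (y axis) against class I mean (x axis), each in log2 units from the mean of all mice, 1 point per mouse, coloured by group and shaped by chip. The points rise together from sham 3 and sham 4 to MI 1 and MI 3, and groups are intermixed.

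Genes outside the 10 that followed them are given as a description, since they share arrays and normalization with them. The class II mean followed the other class II molecules at r = 0.94, general leukocyte markers (6 genes) at 0.85, the immunoproteasome (5) at 0.79, interferon-induced genes (20) at 0.77 and co-stimulation (4) at 0.74. For class I these values were 0.81, 0.86, 0.88, 0.86 and 0.78. Other lists of the pathway followed class II less closely, namely class I loading (4) at 0.34, regulators of class I (4) at 0.26, class II transcription (4) at 0.22 and class II peptide supply (5) at 0.16, with 0.31, 0.36, 0.39 and 0.27 for class I. Macrophage markers (14) gave 0.32 and 0.41, endothelial markers (11) -0.04 and -0.03, and cardiomyocyte markers (7) -0.56 and -0.41. With chip means removed too, macrophage markers gave 0.15 and 0.32 and endothelial markers 0.36 and 0.23, so the latter changed sign. The median signal of the array gave -0.34 and -0.45, and the number of detected probes 0.06 and -0.26. Outside the lists, the genes most like the class II mean were Fcgr4 (0.87), an activating receptor for IgG, Lat2 (0.84), Pld4 (0.84), Cyth4 (0.83) and Cd72 (0.83), a B cell receptor partner. Those most like the class I mean were Dph1 (0.86), 4933412E12Rik (0.85), Ifi27 (0.85), an interferon-induced gene, Pfkfb4 (0.84) and Uba7 (0.84), the activating enzyme for ISG15.

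**Figure D5:**
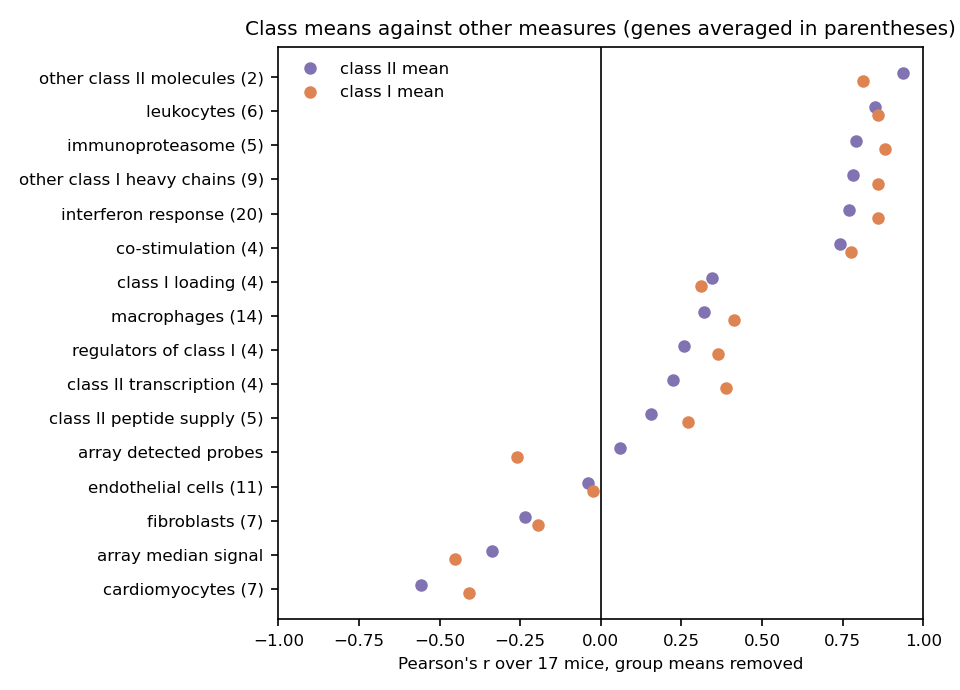
Pearson's r over 17 mice with group means removed (x axis) of the class II mean and the class I mean against the mean of other gene lists and 2 array measures (y axis). Leukocyte, immunoproteasome and interferon lists lie at 0.77 to 0.88, macrophage markers at 0.32 and 0.41, and cardiomyocyte markers below 0. H2-Ke6 is among the 9 heavy chain genes.

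Between MI and sham 8 of 14 macrophage markers rose and none fell at an adjusted p under 0.05, where 5.63% of all genes passed in either direction. The median log2 difference of the 14 was 0.53, against -0.01 over all genes. Among those that rose were Lyz2 (0.77, adjusted p = 0.00491), lysozyme of myeloid cells, Folr2 (0.54, adjusted p = 0.0168) and C1qa (0.53, adjusted p = 0.0228). With the chip as a block 1 of 14 passed, Lyz2 (0.66, adjusted p = 0.0322), where 187 of 8236 genes did, and the median of the 14 was 0.42. That these changes differ from those of class II was not tested. Their summed signal was 4146 to 5796 in sham mice, 6363 to 10740 in infarcted and 5462 to 7322 in treated mice, so sham and MI did not overlap, while that of the class II genes did, at 1243 to 2925, 1883 to 4560 and 2056 to 2896. General leukocyte markers had a median of 0.47 with 0 of 6 passing and 4 at an unadjusted p under 0.05, where 19.7% of all genes were. Their summed signals were 1918 to 2837, 2234 to 4639 and 2241 to 3056. Of 9 dendritic cell markers 6 were detected on no array (Flt3, Itgax, Cd209a, Xcr1, Clec9a and Ccr7), Zbtb46 on 8, Clec10a on 4, and Cst3, which many tissues express, on all 17. Of 5 B cell markers on the array, Ms4a1, Cd22, Blk and Pax5 were detected on none and Cd79b on 5. Of 8 T cell markers, Cd4, Cd8a and Cd2 were detected on no array, Cd3e on 2, Cd3d and Cd3g on 4, Cd247 on 6 and Cd8b1 on all 17. The part of these cells in the class II values was not tested, nor was that of macrophages.

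The rest of the pathway showed few calls between MI and sham, where 5.63% of all genes passed. Of the immunoproteasome list, whose core cuts peptides for class I, Psmb10 rose in MI (0.49 ± 0.13, adjusted p = 0.0241) and the other 4 did not pass. The median of the 5 was 0.14. Psme1 (-0.23, adjusted p = 0.185) and Psme2 (-0.21, adjusted p = 0.238) were lower in MI, both at an unadjusted p under 0.05. Psmb8 and Psmb9 were at 0.19 and 0.14. Of co-stimulation, Cd86 rose in MI (0.79 ± 0.20, adjusted p = 0.0230) and the other 3 did not pass. With the chip as a block neither passed, at 0.31 (adjusted p = 0.159) and 0.74 (adjusted p = 0.105). Between MI+Val and MI, Psmb10 was at -0.37 (adjusted p = 0.380) and Cd86 at -0.62 (adjusted p = 0.337). None of the 2 other class II molecules, 8 other class I heavy chains, 4 class I loading genes, 5 genes of class II peptide supply, 4 class II transcription genes, 4 regulators of class I or 20 interferon-induced genes passed between MI and sham. H2-Ke6, listed with the heavy chains but known as a hydroxysteroid dehydrogenase gene of the region, was at -0.23 (adjusted p = 0.155). Tap2, the partner of Tap1, had an estimate of -0.29 ± 0.11 (adjusted p = 0.127), where Tap1 stood at 0.02. Ciita, the master regulator of class II transcription, was detected on no array, and Nlrc5, its class I counterpart, on at most 10 of 17.

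The interferon-induced genes had a median of 0.21 between MI and sham, with all 20 estimates above 0, and of -0.17 between MI+Val and MI, with 4 of 20 above 0, and 0 of 20 passed in either. Leukocyte markers in MI+Val against MI had a median of -0.22 and macrophage markers of -0.23, none passing. The class II genes stood at -0.02 there, with intervals for single genes from -0.63 to 0.57, and the class I genes at -0.02. With the chip as a block, all 5 class II estimates were above 0 there, from 0.18 for H2-Ab1 to 0.24 for H2-Aa, and none passed (adjusted p from 0.883 to 0.961). Against sham, where 49.4% of all genes were higher in MI+Val, class II was higher in 5 of 5 genes with a median of 0.36, and class I in 4 of 5 with a median of 0.15, and none passed.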

How the data were processed

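Per the labels and methods, biotinylated cRNA from 17 mice was hybridised to Illumina MouseWG-6 v2 BeadChips, and the authors deposited the bead intensity of 45281 probes, with neither background subtraction nor normalization. They also deposited a detection p-value per probe and log2 values made with lumi under R 3.0.1 (submitters' processing notes). Here limma 3.58.1 under R 4.3.3 ran neqc (background from detection p, offset 16, quantile normalization, log2). A probe with 1 gene symbol was retained if the 33rd percentile of its signal reached 125, which removes dim probes. Each gene was represented by its most variable probe (interquartile range). The offset shrinks differences of dim genes such as Tap1. The number of arrays and the signal over background limit the precision. A model of the 3 groups without covariates gave empirical Bayes tests with Benjamini-Hochberg adjustment over all genes. A probe was called detected at a detection p under 0.01.

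Pair correlations used values with group means removed and 100000 two-sided permutations within groups, adjusted over the 45 pairs. They, the chip block on gene lists, the heavy chain list without H2-Ke6, the leave-out alternatives on class means and the promoter letters were chosen after seeing the data. The 10 genes and the gene lists were chosen with earlier results of these data known. Named were the 10 genes, up to 3 genes of a list with the smallest p in the F test, the 5 genes outside the lists most like each class mean, defining cell markers and genes whose probe or partner bears on a member. H2-DMb1, H2-DMb2, Nlrc5 and Psmb10 fall under these, as partner, regulator and list gene. Probe annotation was dated and symbols were updated through RefSeq. The model was tested on simulated data. No array duplicated another. Alternatives changed the background, normalization, filter, probe choice, blocks, weights, arrays and test. Figures used matplotlib 3.10.9.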

Additional observations from a re-analysis of the deposited data

Results flagged for a closer look

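Each gene and class mean was checked in each group for a mouse whose gap to the nearest other mouse took up most of the range of its group. Of 39 such sets 3 stood out, and chance alone marks about 1 in 20. For H2-Aa, sham 1 was at 8.58, with the next sham mouse at 7.93, and without it the sham mean was 7.84 in place of 7.96. For Cd74, MI+Val 2 was at 9.90, with the next MI+Val mouse at 10.18. For the class II mean minus the class I mean, MI 3 was at 0.512, with the next MI mouse at 0.136, and without it the MI mean was 0.05 in place of 0.12.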

How the results depend on the processing

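Under the 15 alternatives to the processing (12 for the F test and 11 for the probes) and with each mouse left out in turn, 0 of the 10 genes and 0 of the 19 probes passed in any comparison. The smallest adjusted p of a gene was 0.127 (H2-DMa, MI vs sham) over alternatives and 0.158 (H2-Ab1, MI vs sham) without sham 1. At an unadjusted p under 0.05, alternatives gave at most 2 of the 10 genes between MI and sham, 0 between MI+Val and MI and 2 between MI+Val and sham. Over all genes tested, whose number depends on the filter, these counts were 1239 to 2318, 552 to 1364 and 569 to 1130. All 5 class II genes kept a higher mean in MI than in sham throughout, and over the alternatives their lowest values were those under the chip as a fixed block. The class II mean exceeded that of sham by 0.14 to 0.43 over alternatives, and by 0.23 without MI 3 to 0.50 without sham 1. The class II mean minus the class I mean moved from 0.31 to between 0.20 and 0.36.

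Values near 0 changed sign. Between MI and sham, H2-K1 was at -0.17 without the intensity filter and at -0.17 with a detection filter, since another probe was then taken. Tap1 was at -0.029 under 75th percentile scaling, -0.22 with the chip as a fixed block, -0.0066 with it as a random block and -0.0355 with array weights. Between MI+Val and MI, the fixed chip block gave 0.18 for H2-Ab1, 0.20 for H2-Eb1, 0.21 for H2-DMa, 0.0392 for B2m and 0.21 for Tap1. The random chip block gave 0.003 for H2-Eb1, 0.0106 for H2-DMa and 0.0086 for Tap1. Array weights gave 0.0275 for H2-Eb1, 0.0415 for H2-DMa, 0.0302 for B2m, 0.0666 for Tap1 and 0.0052 for Tapbp. B2m was at 0.0039 and Tap1 at 0.0185 under percentile scaling, and B2m at 0.0081 with all probes averaged. Between MI+Val and sham, Tap1 was at -0.0055 without background correction, -0.0105 under percentile scaling, -0.0037 in the authors' log2 values, -0.0069 with offset 50 and -0.0136 with the fixed chip block.

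The methods name no pairing of mice by replicate number. Of 16 pairs with the same number 4 correlated above 0.1, and 6 of 17 arrays correlated best with their own number. These values cannot decide whether numbers pair mice, since the numbers partly follow the chips. A replicate block left the calls among the 10 genes at 0, gave 467 calls over all genes between MI and sham in place of 464, and put H2-Aa at -0.0053 between MI+Val and MI and Tap1 at -0.017 between MI+Val and sham.

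Leaving out 1 mouse, the values of MI vs sham ran from 0.13 to 0.38 for H2-Aa, 0.28 to 0.63 for H2-Ab1, 0.21 to 0.50 for H2-Eb1, 0.22 to 0.51 for Cd74 and 0.25 to 0.49 for H2-DMa, lowest without MI 3 (H2-Aa, H2-Eb1) or sham 4 and highest without sham 1 (H2-DMa without MI 6). They ran from -0.0355 (without MI 1) to 0.13 for H2-K1, from -0.002 (without MI 1) to 0.27 for H2-D1, from -0.13 (without MI 3) to 0.12 for Tap1 and from -0.24 to 0.004 (without sham 1) for Tapbp. Those of MI+Val vs MI ran from -0.0404 to 0.18 for H2-Aa, from -0.16 to 0.11 for H2-Ab1, from -0.13 to 0.16 for H2-Eb1, from -0.027 to 0.25 for Cd74, from -0.12 to 0.11 for H2-DMa, from -0.0927 to 0.0765 for B2m and from -0.12 to 0.14 for Tap1, the upper end without MI 3 except for B2m (without MI+Val 2). Tap1 in MI+Val vs sham ran from -0.12 to 0.0878. The median r of class I pairs was 0.46 without the intensity filter and 0.46 with the detection filter, in place of 0.62. Over all genes, the fixed chip block gave 187 calls in place of 464 between MI and sham and 193 in place of 395 in the F test, the t-test of the methods without adjustment 153 in place of 0 and 107 in place of 1 in the comparisons of MI+Val with MI and sham, and leaving out 1 mouse gave 263 (without sham 5), 297 (without MI 4) and 302 (without MI 1) between MI and sham, and 222 (without MI 4) and 249 (without sham 5) in the F test. The alternatives that kept all mice otherwise gave at most 10 and 6 calls in the comparisons of MI+Val, and leaving out 1 mouse at most 15 (without MI+Val 5) and 4 (without sham 6). Intervals for class II genes between MI and sham reach from -0.10 to 0.96, the precision that this number of arrays gave.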
